A study of Mus musculus with 14 samples.

Results

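Transcripts of 7 genes of cholesterol synthesis were followed in monocyte-derived macrophages sorted from the inflamed central nervous system of mice. The genes were taken by symbol from the expression table, which holds 19940 genes, and all 7 passed the filter on low values. They are Hmgcs1, Fdps, Fdft1, Sqle, Lss and Cyp51, which encode enzymes, and Insig1, which encodes a regulator of the pathway and no enzyme. Cholesterol is built from acetyl-CoA by way of mevalonate, farnesyl diphosphate, squalene and lanosterol. The transcription factor SREBP2, encoded by Srebf2, is held in the endoplasmic reticulum while sterols are plentiful and travels to the Golgi for cleavage when they run low, after which it raises transcription of the enzymes and of Insig1. In the inflamed central nervous system macrophages take up cholesterol-rich myelin debris, and cells loaded with sterol are known to lower their own synthesis.

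The series compared macrophages that differ in a catalase directed to mitochondria, at the peak of experimental autoimmune encephalomyelitis, an immune-mediated disease of myelin used as a model of multiple sclerosis. The 7 mCAT libraries came from donor marrow with CD45.2 and the alleles CCR2creERT2/+ and mcat lsl/wt, which join a tamoxifen-inducible Cre at Ccr2 to a Cre-dependent catalase, both heterozygous. The 7 wt libraries came from wt marrow with CD45.1. Hosts had been irradiated with 2 doses of 5.5 Gy and given 2.5 M (mega) marrow cells of each genotype, and all samples were labelled as tamoxifen-treated. Age, genotype and CD45 allele of the hosts were not given in the sources used here. Genotype and CD45 allele cannot be told apart, because each genotype carries its own allele. Library names also carry a code, either C1 (8 libraries) or C2 (6 libraries), followed by a number. The labels do not say what C1 and C2 stand for. An mCAT and a wt library share code and number in 6 cases, called code stems here, and wt 1 and mCAT 3 have no partner. Nothing states whether libraries of a group came from separate animals, so p-values measure the spread between these libraries.

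Estimated depth ran from 27.6 to 46.9 M reads in mCAT and from 16.6 to 43.2 M reads in wt libraries. Values are normalised counts, obtained by undoing the log2 scale of the deposited table, unless a log2 difference is named. Cat averaged 2831 ± 808 in mCAT and 2155 ± 626 in wt libraries (SD, n = 7 each; limma adjusted p = 0.878 without pairing and 0.385 with the stem as a block), and was higher in mCAT in 6 of 6 stems. The species of the added catalase was not given in the sources used here. Macrophage markers were abundant in every library, with Adgre1 at 18997 ± 7721 in mCAT and 15891 ± 7008 in wt. Their summed level was 998090 to 3726000 in mCAT and 1110000 to 4649800 in wt. Microglial markers were also present, at 28447 to 82648 in mCAT and 18622 to 81613 in wt. T cell markers summed to 3167 to 8327 in mCAT and 2806 to 6619 in wt, and 5 of 7 tested lay below 0 on the log2 difference scale (median -0.47). The sum was mostly Il7r, which averaged 3903 over the 14 libraries, against at most 98 for each other tested marker. Of the 7 T cell markers 5 had an unadjusted p under 0.05 (limma without pairing), against 5.37% of all genes. Their smallest adjusted p was 0.302. No marker of macrophages, monocytes, microglia, T cells, B cells, neutrophils, oligodendrocytes, astrocytes, endothelium or neurons was called between the genotypes without pairing. With the stem as a block Ccr2 was called lower, at 8391 ± 2975 in mCAT and 13742 ± 5015 in wt (adjusted p = 0.00563). The mCAT donors carry the Cre allele at Ccr2 itself, so an effect of that allele on Ccr2 cannot be told apart from other causes. Library wt 1 stood apart on the first 2 principal components, and it held the highest value of all libraries for Fdps and Cyp51 and the lowest for Insig1. In bulk RNA, fewer cells of a type and less RNA per cell cannot be told apart.

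All 7 genes were well measured, and their levels per transcript length spanned more than an order of magnitude. Per kilobase of the longest principal transcript, Fdps, which makes the branch point compound farnesyl diphosphate, was highest at 1095 ± 372 normalised counts per kb (SD over 14 libraries). Insig1 followed at 757 ± 133 per kb, within the spread of Fdps. Hmgcs1, which makes HMG-CoA on the way to mevalonate, stood at 360 ± 75.5 per kb, and Cyp51, which removes a methyl group from lanosterol, at 345 ± 115 per kb, within the spread of Hmgcs1. The squalene epoxidase gene Sqle (211 ± 81.5 per kb), whose spread reached that of Cyp51, and the squalene synthase gene Fdft1 (203 ± 32.3 per kb) also lay within each other's spread. The lanosterol synthase gene Lss was lowest at 80.4 ± 17.8 per kb. They lie on chromosomes 3 (Fdps), 5 (Insig1 and Cyp51), 13 (Hmgcs1), 15 (Sqle), 14 (Fdft1) and 10 (Lss), none on chromosome 1, where Ptprc, the gene of CD45, is found.

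Some reads of these genes could have been assigned elsewhere. The 3' end of Fdft1 overlaps that of Ctsb on the other strand by 774 bases, the library method keeps no strand, and Ctsb stood at 94927 to 500070 normalised counts against 522 to 916 for Fdft1. Over the 14 libraries Ctsb and Fdft1 had r = -0.54, given as a description. Fdps shares 1124 exonic bases on the same strand with Gm43738, whose values were not analysed here. It also has a copy, Gm3571, that is 98.9% identical over 1062 bases, and at most 0.893 normalised counts were assigned to that copy in any library. Akap9 overlaps Cyp51 by 166 bases on the other strand and stood at 551 to 2809 normalised counts, against 765 to 2399 for Cyp51. Akap9 and Cyp51 had r = 0.65 (rho 0.44) over the 14 libraries, given as a description. The part of shared reads in this was not tested. Gm48342 overlaps Hmgcs1 by 557 bases and 4930483K19Rik overlaps Lss by 381 bases. Values of these members are uncertain to that extent.

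Promoters are shown to set side by side Cyp51 and Hmgcs1, which did not move together across the libraries (r = 0.04), with Insig1 beside them. The choice was made after these values were seen. Insig1 had r = 0.24 with Cyp51 and 0.20 with Fdps, but 0.62 and 0.65 without wt 1. Insig1 is therefore not set apart from them here. RefSeq promoter sequences on GRCm38.p6, from 250 bases before to 50 bases after the start, were matched for 4 of the 7 genes, namely Hmgcs1, Insig1, Lss and Cyp51. There were none for Sqle, Fdps and Fdft1. Capitals mark matches on either strand to TCACNCCAC, the core of a sterol regulatory element, to CCAAT, the box bound by NF-Y, and to GGGCGG, the box bound by Sp1. No 2 matches overlap in these sequences. The Hmgcs1 window is chr13:119690101-119690400 on the plus strand, that of Insig1 chr5:28071162-28071461 on the plus strand and that of Cyp51 chr5:4104648-4104947 on the minus strand.
Hmgcs1: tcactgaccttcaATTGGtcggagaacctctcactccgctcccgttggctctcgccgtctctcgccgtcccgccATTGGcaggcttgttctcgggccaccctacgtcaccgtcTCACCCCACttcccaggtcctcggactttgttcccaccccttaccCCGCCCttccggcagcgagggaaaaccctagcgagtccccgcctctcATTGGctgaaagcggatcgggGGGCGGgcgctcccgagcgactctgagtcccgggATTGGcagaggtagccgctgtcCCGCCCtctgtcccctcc
Insig1: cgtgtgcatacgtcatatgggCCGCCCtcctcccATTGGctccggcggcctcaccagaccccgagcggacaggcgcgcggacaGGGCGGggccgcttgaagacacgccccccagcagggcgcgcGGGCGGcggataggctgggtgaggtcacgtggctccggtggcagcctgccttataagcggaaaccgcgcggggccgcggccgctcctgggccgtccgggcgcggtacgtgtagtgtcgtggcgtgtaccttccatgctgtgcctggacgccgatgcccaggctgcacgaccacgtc
Cyp51: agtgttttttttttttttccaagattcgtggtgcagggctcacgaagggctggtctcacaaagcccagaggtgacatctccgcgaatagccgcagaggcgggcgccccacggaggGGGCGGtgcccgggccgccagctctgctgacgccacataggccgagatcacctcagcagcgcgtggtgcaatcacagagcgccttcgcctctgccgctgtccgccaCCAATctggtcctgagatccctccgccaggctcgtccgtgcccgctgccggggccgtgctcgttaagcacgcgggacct
Hmgcs1 held 1 match to the sterol element core, from -137 to -129 relative to the start, with 4 NF-Y and 3 Sp1 matches around it. Insig1 held 1 NF-Y match and 3 Sp1 matches, Lss 1 NF-Y and 2 Sp1 matches, and Cyp51 1 of each. Among 32544 promoters of the same length, 1.235% held the sterol element core, 37.36% CCAAT and 35.88% GGGCGG. All 4 members had both CCAAT and GGGCGG, as did most of the 13 other enzymes of the pathway with a promoter, of which 12 had CCAAT and 12 had GGGCGG. The sterol element core was in 0 of those 13, so lacking it is not particular to Cyp51. A match describes letters and is not evidence of a bound site.

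None of the 7 genes passed the test between mCAT and wt macrophages. In the fit without pairing 0 of 7 passed an adjusted p of 0.05 (limma), where 0.198% of all 12096 genes tested did, and 0 of 7 had an unadjusted p under 0.05, against 5.37% of all genes. With the code stem as a block 0 of 7 passed again, against 0.314% of all genes. The smallest p of a member was that of Insig1. Log2 differences, mCAT minus wt, ran from -0.07 to 0.21, with 5 of 7 above 0 and a median of 0.06, beside -0.00116 over all genes tested.

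Hmgcs1, the entry enzyme, had a lowest value of 898, a median of 1483 and a highest of 1631 normalised counts in mCAT libraries, against 941, 1095 and 1425 in wt libraries. The mCAT values fell into an upper cluster of 5 libraries and a lower pair, mCAT 4 and mCAT 5, and the genotypes overlapped. The log2 difference was 0.19 (SE 0.14, 95% interval -0.11 to 0.50, adjusted p = 0.878), and 4 of 6 stems were higher in mCAT. Fdps had 939, 1561 and 1754 in mCAT, against 747, 1494 and 2916 in wt libraries. Its wt range enclosed the mCAT range, with wt 1 alone at the top, and without wt 1 the log2 difference was 0.13. The difference was -0.02 (SE 0.22, 95% interval -0.48 to 0.43, adjusted p = 0.991) without pairing and 0.11 (95% interval -0.11 to 0.33) with the stem as a block, where wt 1 and mCAT 3 drop out.

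Neither gene of the squalene steps passed. Fdft1, the first enzyme committed to sterols, had 537, 812 and 916 in mCAT, against 522, 740 and 875 in wt libraries. Both ranges nearly coincided, and the log2 difference was 0.05 (SE 0.13, 95% interval -0.22 to 0.32, adjusted p = 0.965). Sqle, an oxygen-dependent and slow step of the pathway, had 226, 723 and 886 in mCAT, against 175, 590 and 789 in wt libraries. The lowest library of each genotype was that of stem C2_2, and the ranges overlapped almost fully. The log2 difference was 0.06 (SE 0.27, 95% interval -0.51 to 0.64, adjusted p = 0.982), the widest interval of the 7 genes, and became -0.01 (95% interval -0.31 to 0.28) with the stem as a block.

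For the lanosterol steps, Lss had 318, 366 and 470 in mCAT, against 206, 328 and 511 in wt libraries. Again wt enclosed mCAT, and the log2 difference was 0.10 (SE 0.15, 95% interval -0.20 to 0.41, adjusted p = 0.929), with 5 of 6 stems higher in mCAT. Cyp51 had 834, 1160 and 1887 in mCAT, against 765, 1339 and 2399 in wt libraries. Of the 6 stems 1 was higher in mCAT, and the log2 difference was -0.07 (SE 0.21, 95% interval -0.52 to 0.38, adjusted p = 0.971), or 0.06 without wt 1. Insig1, whose protein retains the SREBP escort SCAP in the endoplasmic reticulum, had 1705, 2160 and 2575 in mCAT, against 1553, 1802 and 2352 in wt libraries. The mCAT values were shifted upwards within overlapping ranges. The log2 difference was 0.21 (SE 0.12, 95% interval -0.05 to 0.47, adjusted p = 0.878), and 5 of 6 stems were higher in mCAT, all but C1_5.

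**Figure D1:**
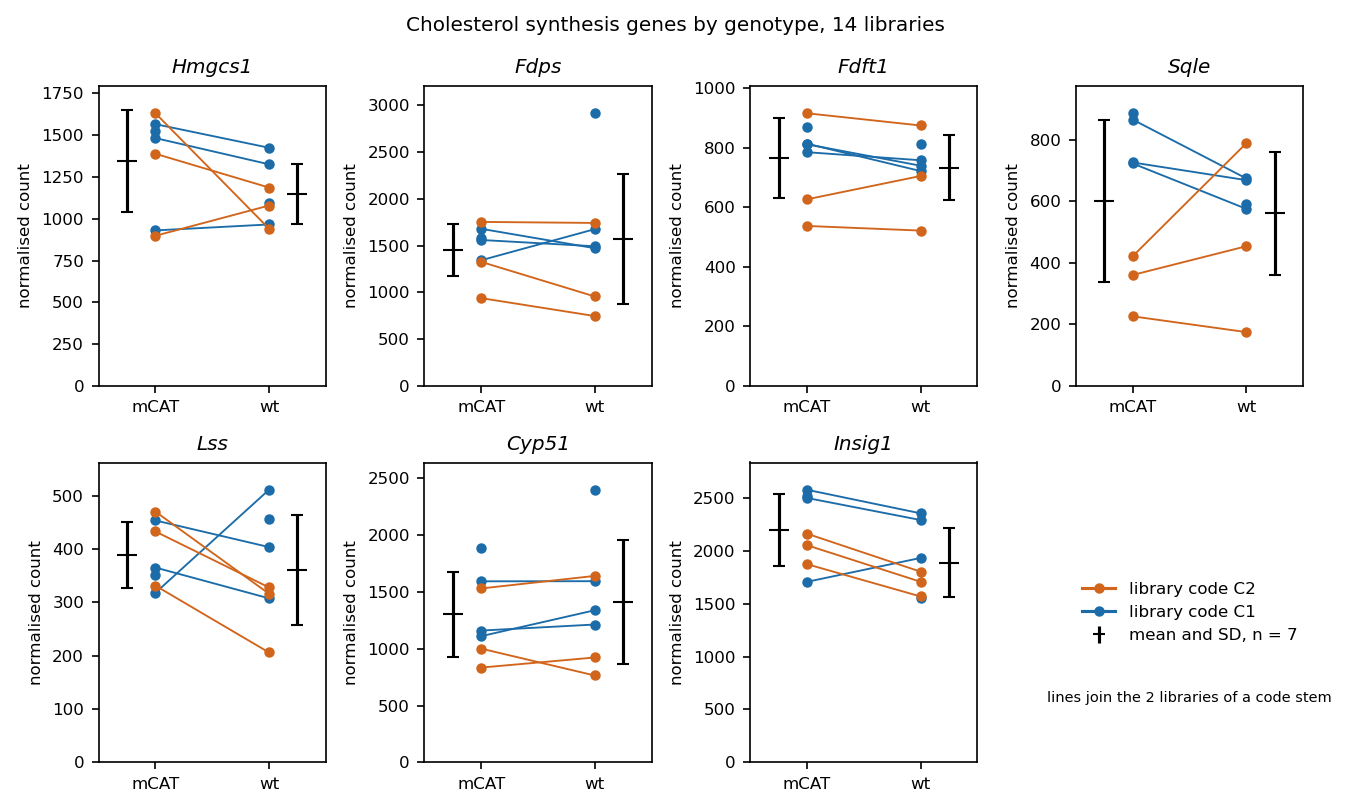
Normalised counts of the 7 genes (vertical axes from 0) in mCAT (left) and wt (right) libraries, coloured by library code, with the mean and SD of each genotype (n = 7) beside the points and lines joining the libraries of a code stem. The genotypes overlap for every gene; wt 1 lies highest for Fdps (2916) and Cyp51 (2399), and the lowest values of Sqle (226 in mCAT and 175 in wt) are both of code C2.

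No other gene of the pathway passed between the genotypes. Of the 15 other enzymes of sterol synthesis 9 lay above 0 (median log2 difference 0.08), and none passed with or without the stem as a block. Among the smallest p-values were those of Lbr, a sterol reductase that is also a lamin B receptor, at 0.43 (SE 0.16, 1421 ± 245 in mCAT and 1043 ± 270 in wt, adjusted p = 0.878) and of Nsdhl at 0.17 (SE 0.11, adjusted p = 0.878). Among 13 genes of SREBP processing and sterol sensing 9 lay above 0, with a median of 0.13 and none passed. Srebf1, which encodes the regulator of fatty acid synthesis, had the smallest p there (0.41, SE 0.15, adjusted p = 0.878), followed by Erlin2 (0.35) and Rnf145 (0.30), which act in the ubiquitin-dependent control of membrane proteins of the pathway. Srebf2 itself stood at 1165 ± 243 in mCAT and 1070 ± 278 in wt (log2 difference 0.13, SE 0.17, adjusted p = 0.920).

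Lists further from the enzymes held no called gene. Of 13 tested genes of lipoprotein uptake and sterol transport 9 lay above 0, with a median of 0.04 and none passed. Stard4 (-0.25) and Scarb1 (0.10) were among those with the smallest p-values. Of 11 genes of sterol efflux, storage and oxysterols 9 lay above 0, with a median of 0.24 and none passed, led by Soat1 (0.26), Abcg1 (0.27) and Lpcat3 (0.21). Of 11 genes of the isoprenoid branch, which uses farnesyl diphosphate for prenyl groups, ubiquinone and dolichol, 4 lay above 0, with a median of -0.08 and none passed. Pggt1b (0.32), Pdss2 (0.25) and Rabggtb (-0.17) led it. Of 11 tested genes of SREBP1-driven fatty acid synthesis 8 lay above 0, with a median of 0.15 and none passed. Acly (0.40, SE 0.17, adjusted p = 0.878) had the smallest p, followed by Acaca (-0.27) and Fads2 (0.34). Of 12 cell cycle genes none passed, with a median of 0.07.

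**Figure D2:**
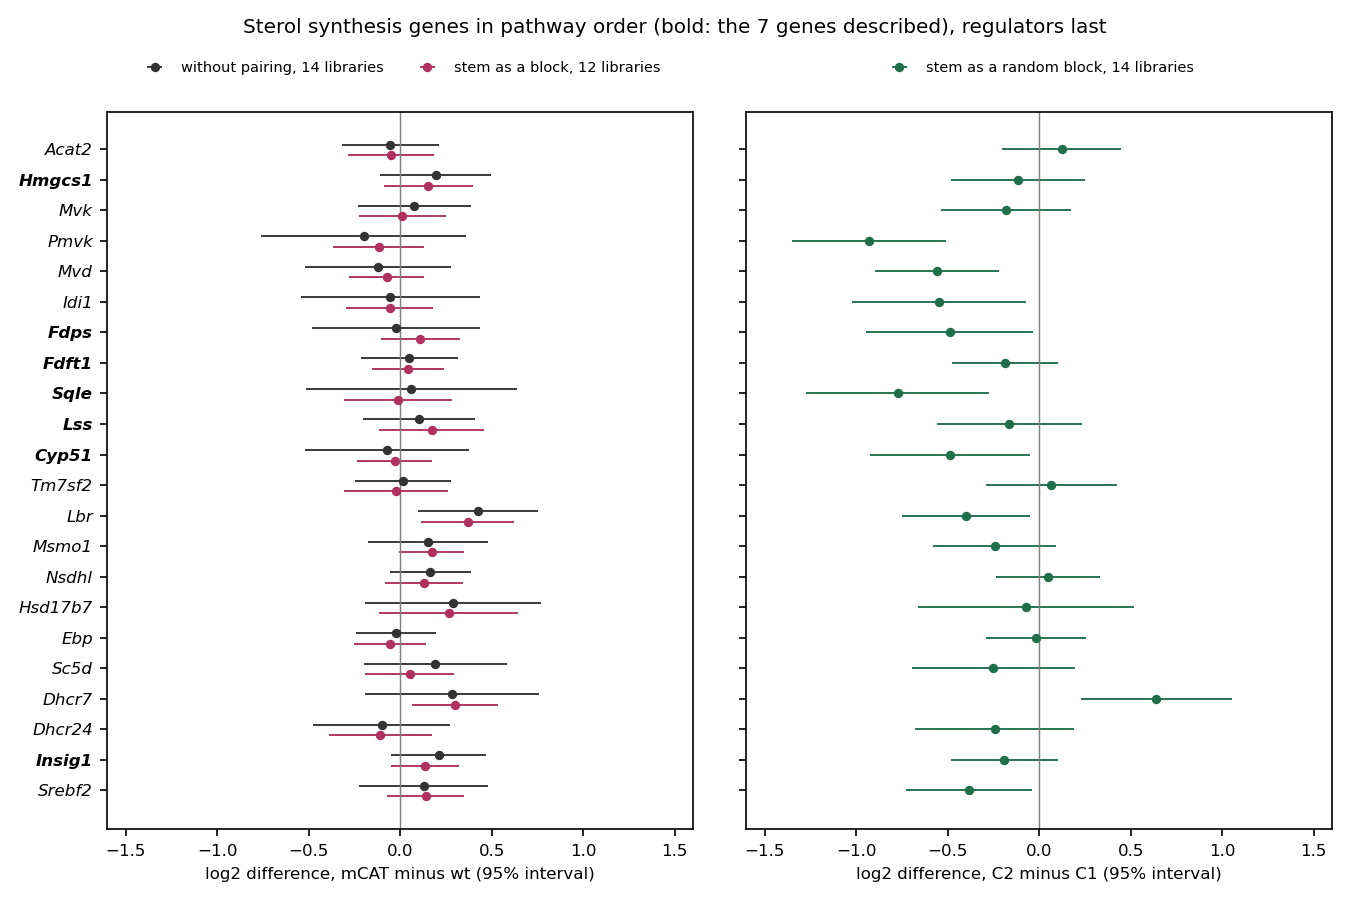
Log2 differences with 95% intervals for enzymes of sterol synthesis in pathway order, then Insig1 and Srebf2. Left, mCAT minus wt without pairing (14 libraries) and with the stem as a block (12 libraries); right, C2 minus C1. No gene passed on the left; on the right Pmvk (-0.93) did, and all 7 members (bold) lie below 0.

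The genotype difference was also taken within each library code, without the stem as a block. These intervals and p-values therefore ignore the pairing and include the spread between stems. No gene of all those tested passed for the difference between the codes (0% of 12096, and 0.852% at an unadjusted p under 0.05), so neither did any of the 7. Lss came closest, at 0.42 (95% interval -0.01 to 0.84) within C2 and -0.13 (95% interval -0.50 to 0.24) within C1, with an unadjusted p of 0.0575 for the difference, but an adjusted p of 0.99996. Sqle stood at -0.26 within C2 and 0.30 within C1, Fdps at 0.24 and -0.22, and Cyp51 at 0.04 and -0.16, all with intervals that include 0. Hmgcs1 was 0.23 within C2 and 0.17 within C1, and Insig1 0.25 and 0.18. Fdft1 was -0.02 within C2 and 0.10 within C1.

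All 7 genes were lower on average in C2 than in C1 libraries, but none passed the test with the stem as a random block. The count was 0 of 7, against 2.71% of all genes called in either direction and 1.11% called lower, and 6168 of 12096 genes lay below 0. At an unadjusted p under 0.05 it was 3 of 7 (Sqle, Fdps and Cyp51), against 17.1% of all genes. Sqle had a lowest value of 175, a median of 391 and a highest of 789 in C2, against 576, 699 and 886 in C1 libraries. The C2 libraries were below every C1 library except for wt 5, at the top of C2. Its log2 difference was -0.77 (SE 0.24, 95% interval -1.27 to -0.27, adjusted p = 0.0946). Without the block it was called (adjusted p = 0.0312), in a fit that called 7.47% of all genes and treats partners as separate samples, and with the block it was called when wt 5 was left out (adjusted p = 0.00968).

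Fdps had 747, 1142 and 1754 in C2, against 1344, 1571 and 2916 in C1 libraries, a log2 difference of -0.49 (SE 0.22, adjusted p = 0.254). Cyp51 had 765, 962 and 1641 in C2, against 1111, 1466 and 2399 in C1 libraries, a difference of -0.49 (SE 0.21, adjusted p = 0.235). In both, the stem C2_1 lay among the C1 libraries and the other 4 C2 libraries lay below all of them. Insig1 (-0.19), Fdft1 (-0.19), Lss (-0.16) and Hmgcs1 (-0.12) were closer to 0, with adjusted p from 0.540 to 0.805.

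The neighbours of the 7 genes in the pathway were lower in C2 more often than not. Of the 15 other enzymes 11 lay below 0, and 1 passed, the phosphomevalonate kinase gene Pmvk, which averaged 882 ± 156 in C2 (n = 6) and 1765 ± 574 in C1 (n = 8; -0.93, SE 0.20, adjusted p = 0.0159) with no overlap between the codes. Srebf2 averaged 963 ± 325 in C2 and 1233 ± 102 in C1 (-0.38, adjusted p = 0.234). The efflux list ran the other way, with 8 of 11 above 0, a median of 0.35 and 2 called higher. Over all 12096 genes 5928 lay above 0, 2.71% were called in either direction and 1.11% were called lower. Apoe, the lipoprotein that carries cholesterol away from macrophages, averaged 1231900 ± 433050 in C2 and 341060 ± 120010 in C1 (1.89, adjusted p = 0.00108). Abca1, the cholesterol exporter, averaged 5728 ± 1288 in C2 and 3204 ± 784 in C1 (0.83, adjusted p = 0.0246). Without stem C2_2 neither Pmvk nor Abca1 passed (adjusted p = 0.153 each), and Abca1 did not pass either without mCAT 6, mCAT 7, wt 6 or wt 7.

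Cell type markers moved with the library code as well. Over all genes tested, 2.71% were called between the codes in either direction and 1.11% were called lower in C2. The summed microglial markers ran from 40659 to 82648 in C2 and from 18622 to 45017 in C1, all 7 tested markers lay above 0 (median 0.80 on the log2 scale), and Gpr34 and Olfml3 were called higher. Sall1 was under the filter, none of these markers was at 0 in every library, and Fcrls was not used here. Macrophage markers summed to 1863700 to 4649800 in C2 and 998090 to 1617200 in C1, with Lyz2 and C1qa called higher. Classical monocyte markers summed to 321740 to 796280 in C2 and 325830 to 1138300 in C1, with 7 of 8 below 0 and 1 called lower. Endothelial markers had 4 of 4 below 0 (median -0.45) and T cell markers 7 of 7 (median -0.19), none called. Neutrophil markers had 3 of 4 below 0 (median -0.61) and astrocyte markers 4 of 6 (median -0.10), each with 1 called lower. B cell, oligodendrocyte and neuronal markers were mixed, with none called. The part of these markers in the lower sterol synthesis values of C2 was not tested.

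Code stems separated 3 of the 7 genes. With genotype in the model, stems differed for Sqle (F = 11.2, adjusted p = 0.00230), Cyp51 (F = 8.78, adjusted p = 0.00608) and Fdps (F = 8.31, adjusted p = 0.00740), 3 of 7 members, where 23.4% of all genes were called. Fdft1 (adjusted p = 0.0689), Insig1 (0.0825), Hmgcs1 (0.124) and Lss (0.412) did not pass. The means of the 6 stems spanned 1.51 on the log2 scale for Sqle, 0.96 for Fdps and 0.78 for Cyp51, while partners within a stem differed by a median of 0.27, 0.23 and 0.11. For Lss the stem means spanned 0.53 and partners differed by a median of 0.38.

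Stem C2_2, which is mCAT 6 and wt 6, was the lowest of the 6 stems for every member except Hmgcs1. Its mCAT library held 226 normalised counts of Sqle, 939 of Fdps, 1001 of Cyp51, 537 of Fdft1, 332 of Lss and 1872 of Insig1. Its wt library held 175, 747, 765, 522, 206 and 1567 of the same genes in that order, the lowest of all 14 libraries for the first 5. Hmgcs1 departed from this, with its highest value of all, 1631, in mCAT 6, and 941 in wt 6. Without stem C2_2 the calls of Sqle (adjusted p = 0.124) and Fdps (0.113) ended, Cyp51 remained called (0.00488) and Hmgcs1 was called (0.0266).

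**Figure D3:**
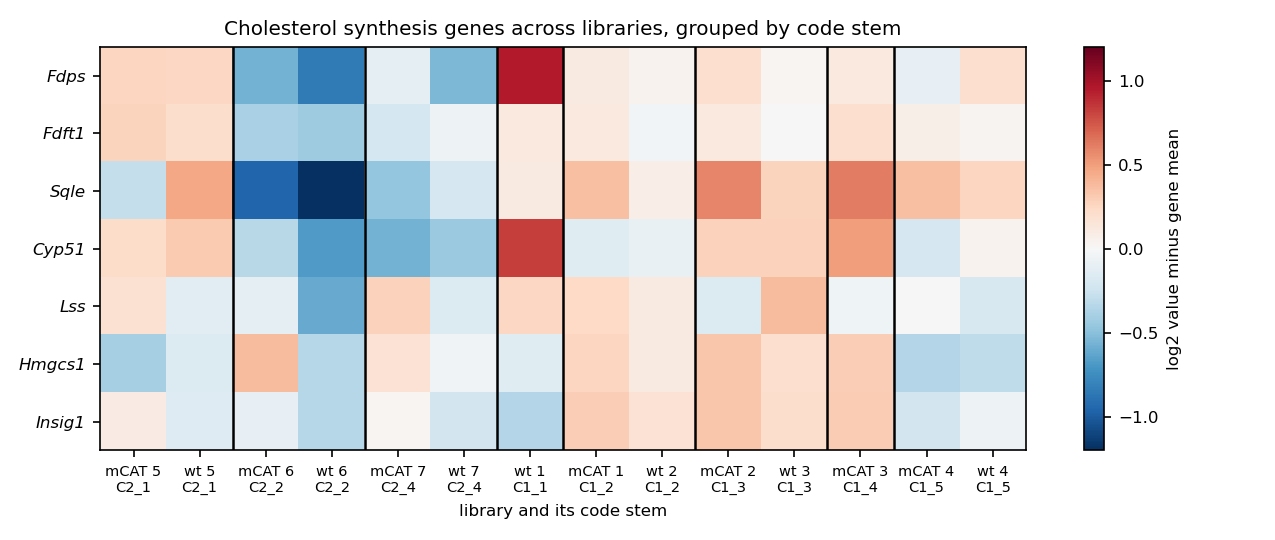
Log2 values of the 7 genes in each library, minus the gene's mean over the 14 libraries (red above, blue below), with C2 stems left of C1 stems, mCAT left of wt within a stem and black lines between stems. Stem C2_2 is blue for most genes but Hmgcs1 is red in mCAT 6, and wt 1 is deep red for Fdps and Cyp51.

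The highest library exceeded the lowest by 5.07-fold for Sqle, 3.90-fold for Fdps, 3.14-fold for Cyp51, 2.48-fold for Lss, 1.82-fold for Hmgcs1, 1.76-fold for Fdft1 and 1.66-fold for Insig1. The 7 genes did not all move together over these ranges. Of 21 pairs of genes, 19 had a Pearson r above 0 over the 14 libraries, with a median of 0.40 (median Spearman rho 0.27), and 6 passed a permutation test adjusted over the 21 pairs by the Benjamini-Hochberg method. The median r was 0.18 without wt 6 and 0.57 without wt 1. Partners of a stem are not independent, so these p-values are too small, and r over the 8 stem means is given beside them.

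The 6 pairs that passed were those among Fdps, Fdft1, Sqle and Cyp51, a grouping seen in the values and not chosen beforehand. Fdps and Cyp51 had r = 0.868 (rho 0.837, permutation p = 0.0001, adjusted p = 0.0021), 0.901 over the stem means and 0.728 without wt 1 and wt 6, the 2 libraries farthest from the median. Sqle and Fdft1, which act in succession on either side of squalene, had r = 0.839 (rho 0.692, permutation p = 0.00045, adjusted p = 0.00473), 0.888 over the stem means and 0.511 without mCAT 6 and wt 6. Fdps and Fdft1 had r = 0.767 (adjusted p = 0.00819), 0.767 over the stem means and 0.798 without wt 1 and wt 6. Fdft1 and Cyp51 had r = 0.751 (adjusted p = 0.00903), 0.771 over the stem means and 0.688 without mCAT 6 and wt 6. Sqle and Cyp51 had r = 0.669 (adjusted p = 0.0329), 0.668 over the stem means and 0.508 without mCAT 6 and wt 6. Sqle and Fdps had r = 0.667 (adjusted p = 0.0329) and 0.637 over the stem means. It was 0.239 without mCAT 6 and wt 6, with an adjusted permutation p of 0.181 for rho over all libraries, so this relation rests on those libraries. Leaving out wt 6 alone reduced the 6 passing pairs to 2.

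Hmgcs1 stood outside that group. Its r was -0.06 with Fdps, -0.14 with Fdft1, 0.04 with Cyp51 and 0.15 with Sqle, none of which passed. With Insig1 it reached 0.637 (rho 0.6, permutation p = 0.0181, adjusted p = 0.0544), 0.722 over the stem means and 0.736 without mCAT 4 and mCAT 5. Lss had r from 0.28 to 0.58 with the other genes, none of which passed, and without wt 6 these were between -0.10 (Sqle) and 0.33 (Fdps). Between the partners of a stem the picture differed. Over the 6 mCAT minus wt differences, given as a description, Hmgcs1 had r = 0.849 with Cyp51, 0.591 with Fdps and 0.575 with Sqle, while Fdps and Fdft1 had r = -0.49. Stem C2_2 held the largest difference of the 6 for both Hmgcs1 (0.72) and Cyp51 (0.34). Their within-stem r leans on that stem and was not taken without it.

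**Figure D4:**
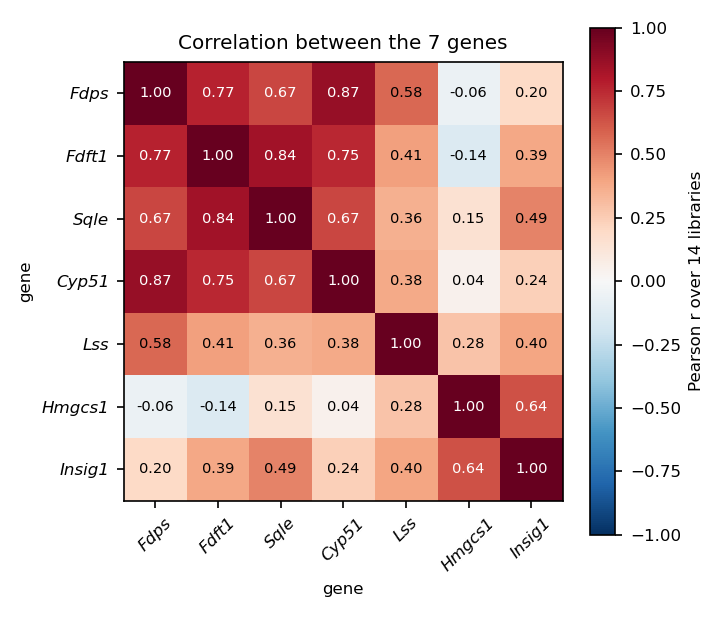
Pearson r of log2 values between each pair of the 7 genes over 14 libraries, coloured from -1 (blue) to 1 (red). Fdps, Fdft1, Sqle and Cyp51 form a red block (0.67 to 0.87), and Hmgcs1 lies between -0.14 and 0.15 with each of these.

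Among all other genes, Idi1 was among those most like the mean of the 7, each gene scaled to its own mean and SD. Of 12089 genes 54 reached r of 0.8 or more (0.447%), given here without a test. The 10 highest included Pirb (0.909), Idi1 (0.894), Nxpe5 (0.883), Tango6 (0.882), Isca1 (0.874), Ptpn6 (0.870), Gda (0.865), H2-DMb2 (0.860) and Gbp7 (0.857). Idi1 encodes the isomerase just upstream of Fdps. Each of the 10 was lowest in wt 6, the library that also had the lowest mean of the 7 genes, and without it Idi1 stood at 0.847 and Gbp7 at 0.680. Over the 8 stem means Idi1 had r = 0.942.

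Srebf2 followed the mean of its targets at r = 0.806, 0.849 over the stem means. The 15 other enzymes had a median r of 0.60, with 12 of 15 above 0, against a median of -0.000581 and 49.96% above 0 over all genes tested. Mvd (0.717) was in the upper part of that list, while Dhcr7, a late reductase of the pathway, was below 0 (-0.19). The 13 genes of SREBP processing had a median of 0.09, the uptake and transport list 0.02 and the fatty acid list 0.28, where Acly had 0.717, and 0.341 without wt 6. Efflux genes had a median of -0.41, with 3 of 11 above 0, Apoe at -0.62 and Abca1 at -0.41. All 7 microglial markers were below 0 (median -0.62), with Gpr34 at -0.81, and classical monocyte markers had a median of 0.33. Endothelial markers had a median of 0.56 with 4 of 4 above 0, and neuronal markers 0.12 with 5 of 5 above 0. Medians of the macrophage, T cell, B cell, neutrophil, oligodendrocyte and astrocyte markers lay between -0.06 (macrophage) and 0.21 (B cell). The part of cell type markers in these relations was not tested.

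**Figure D5:**
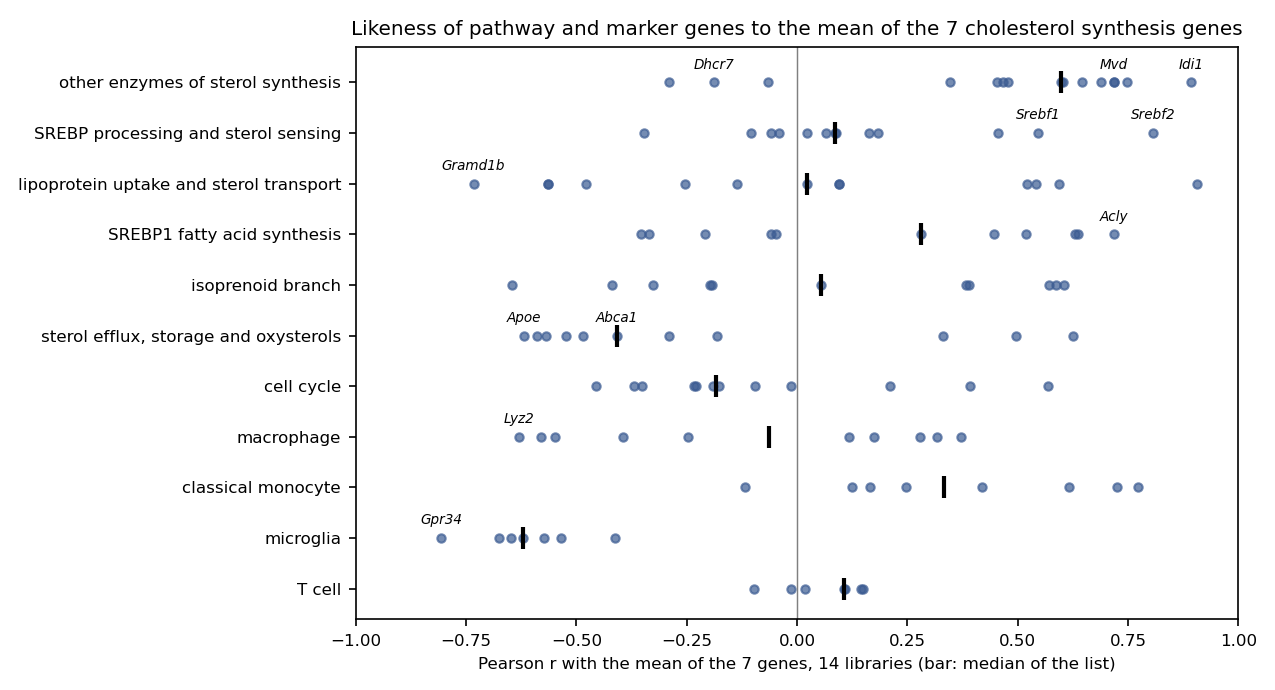
Pearson r of each tested gene with the mean of the 7 genes over 14 libraries, for the pathway lists and the macrophage, classical monocyte, microglia and T cell markers. Each point is a gene and each bar the median of its list. Idi1 (0.894) and Srebf2 (0.806) lie at the right, and all 7 microglial markers lie left of 0.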

How the data were processed

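The authors deposited log2 values: the table's title says raw counts, yet no value is whole and all libraries share a lowest value, as a variance-stabilising transformation gives. Per the submitters' processing notes, FastQC, fastp, Salmon and GRCm39 were used, with versions and annotation not given in the sources used here. Normalised counts came from inverting the closed form of that transformation. The size of a read was taken from low values, of which 57.9% to 79.6% per library lay within 0.15 of a whole number, so depth is rough, whole reads were not recovered, and depth speaks of counting error only. The deposited log2 scale understates differences of low genes.

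limma 3.58.1 (R 4.3.3, statmod 1.5.0) was run with a mean-variance trend and robust moderation on the 12096 of 19940 genes with a normalised count of at least 10 in at least 7 libraries, and checked on simulated data. Tests were 2-sided with Benjamini-Hochberg adjustment over all genes tested and a threshold of 0.05. The code fit had genotype as a covariate and the stem as a random block (consensus correlation 0.463). The fits within codes and of the difference between codes had no block. The stem test used the 12 paired libraries. Deviations from group means correlated between partners of all 6 stems, from 0.232 to 0.659, so the stems were taken to pair libraries. Title numbers correlated from -0.294 to 0.641 and were not. Correlations used 100000 permutations (scipy 1.17.1). Transcript lengths, overlaps and copies came from GENCODE M21 on GRCm38, another build than that of the values, with copies found by blastn 2.17.0 at 90% identity or more over 300 bases or more.

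The members and lists were chosen with earlier results of these data known. Named genes were all members, the called genes and the 3 smallest genotype p-values of each pathway list, and the 10 genes most like the members' mean. Other genes given with values (Srebf2, Mvd, Dhcr7 and the markers) were chosen after their values were seen. Some genes of the lists are not reported by name here.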

Additional observations from a re-analysis of the deposited data

Results flagged for a closer look

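None of the 7 genes had a library flagged by the rule used here, though wt 1 stood at 2916 for Fdps, against 1743 in the next wt library. Of 82 groups examined over 41 named genes, 4 held a library whose gap to the next was large for the range of its group. Chance gives about 1 in 20, so 4 flags are near the number it would give. Acaca, the carboxylase of fatty acid synthesis, was highest in mCAT 7 at 349.7 normalised counts, against 140 to 198 in the other mCAT libraries. The replication gene Pcna was highest in wt 7 at 5066, against 3136 to 3508 in the other wt libraries. Ccnb1, a cyclin of mitosis, was also highest in wt 7, at 459.8 against 114 to 254 in the other wt libraries. H2-DMb2, which encodes a chain of the peptide exchange factor of MHC class II, was lowest in wt 6 at 562, against 1031 to 1190 in the other wt libraries. It was examined because it followed the mean of the 7 genes, which was itself lowest in wt 6.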

How the results depend on the processing

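No member passed the genotype test under any alternative run, which were the filter, scale, scaling, variance model, both blocks and leaving out each library. With the stem as a replicate block 38 genes were called in place of 24, and Sqle (-0.012) and Fdps (0.11) changed sign. Title numbers as a block gave 25 calls. Leaving out 1 library gave 18 to 25 calls, and log2 differences of -0.13 to 0.23 for Sqle, -0.17 to 0.13 for Fdps, -0.19 to 0.059 for Cyp51 and -0.018 to 0.12 for Fdft1. In the code fit, no replicate block gave 903 calls in place of 328 and called Sqle (-0.77). Without stem C2_2, an alternative added after seeing the data, 55 genes were called, and Pmvk and Abca1 were not (adjusted p = 0.153 each). Leaving out 1 library gave 186 calls (without wt 6) to 507 (without wt 5) and Sqle from -0.95, when it was called without wt 5 (adjusted p = 0.00968), to -0.68. Abca1 lost its call without mCAT 6, mCAT 7, wt 6 or wt 7 (adjusted p up to 0.0559). Leaving out 1 stem gave F of 3.26 to 23.1 for Sqle, 3.41 to 11.5 for Fdps and 2.15 to 6.31 for Hmgcs1. For the difference between codes, leaving out 1 library gave -0.027 to 0.49 for Cyp51, -0.31 to 0.035 for Fdft1, -0.10 to 0.29 for Hmgcs1 and -0.071 to 0.18 for Insig1. Median r was 0.589 over the 8 stem means, added after seeing the data, and 0.18 to 0.57 leaving out 1 library, with 2 to 7 pairs passing. Then r ran from -0.14 to 0.15 for Hmgcs1 and Cyp51, -0.44 to 0.092 for Hmgcs1 and Fdft1, -0.33 to 0.10 for Hmgcs1 and Fdps, -0.084 to 0.43 for Hmgcs1 and Sqle, -0.036 to 0.65 for Insig1 and Fdps and -0.10 to 0.47 for Sqle and Lss. The causes were not tested. Library number and rough depth limit what could be detected.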
